A study of Mus musculus with 11 samples.

Results

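The 10 genes described here encode fibrillar and microfibrillar collagen, collagen-binding proteoglycans, other matrix proteins, a mesenchymal growth factor receptor and smooth muscle actin, and they mark the capsule and stroma around the adrenal cortex. They were Col1a1, Col1a2, Col3a1, Col6a3, Dcn, Lum, Postn, Fbln1, Pdgfra and Acta2, and every array probe whose transcript belonged to 1 of them was taken. Probes were matched for 9 of the 10, with no match for Col6a3, which is not analysed here. These 9 genes had 16 of the 41174 probes on the array, and 15 of the 16 passed the filter, a signal flagged above background by the scanner software on 4 or more arrays. All 9 genes were among the 20741 genes and unnamed probes tested, and the probe that represented each of them was well above background on all 7 wild-type and all 4 knockout arrays.

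The study compared 7 wild-type mice (Star+/+) with 4 knockout mice (Star-/-) lacking steroidogenic acute regulatory protein, which delivers cholesterol to mitochondria for steroid synthesis. Adrenal glands were taken from embryos of both genotypes at E17.5 to E18.5, without further treatment named in the labels. After enzymatic dissociation, eGFP-positive cells were sorted by flow cytometry, and the RNA of each mouse was amplified and hybridised to a single-colour Agilent array of its own. The promoter driving eGFP was not given in the sources used here. All 4 knockout mice were labelled male, against 3 male and 4 female wild-type mice. There were 3 slides: wild-type arrays 1 and 2 shared slide 1 with knockout arrays 1 and 2, wild-type array 3 shared slide 2 with knockout arrays 3 and 4, and wild-type arrays 4 to 7 made up slide 3. A fitted difference between genotypes therefore rests on slides 1 and 2, and slide 3 adds only to the estimated spread. The labels gave all arrays of slide 1 as male, and on slide 2 wild-type array 3 as female and both knockout arrays as male. Within slide 2, sex and genotype therefore cannot be told apart. Levels below are log2 signals minus the 75th percentile of the array, and the level of a gene is that of its own probe, so levels are compared between arrays and not between genes.

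The adrenal capsule is a thin layer of mesenchymal cells and matrix that encloses the steroid-producing cortex, and in the embryo it also holds progenitors that contribute cells to the cortex. Type I and type III collagen form its fibrils, decorin and lumican coat such fibrils, and periostin and fibulin-1 link matrix components to each other and to cells. Pdgfra is carried by many mesenchymal cells, and Acta2 is made by smooth muscle cells, pericytes and myofibroblasts. In RNA of a sorted population, more cells of a type and more RNA per cell cannot be told apart.

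A promoter stretch was at hand in RefSeq (GRCm38.p6) for 7 of the 10 genes. Those of Col1a2, Col3a1 and Acta2 are printed because the levels of these genes, which stand for the collagen fibril and the contractile cell, are compared across arrays below. Each is the 250 bases before the annotated start, 5′ to 3′ on the strand of the gene: chr6:4505368-4505617 on the plus strand for Col1a2, chr1:45311288-45311537 on the plus strand for Col3a1 and chr19:34255374-34255623 on the minus strand for Acta2. Capitals mark the motifs found.
Col1a2: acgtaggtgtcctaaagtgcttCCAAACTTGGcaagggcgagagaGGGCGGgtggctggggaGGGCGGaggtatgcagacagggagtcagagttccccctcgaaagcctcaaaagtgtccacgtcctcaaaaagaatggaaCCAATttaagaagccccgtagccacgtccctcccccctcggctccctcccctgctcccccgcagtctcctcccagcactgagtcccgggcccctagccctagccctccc
Col3a1: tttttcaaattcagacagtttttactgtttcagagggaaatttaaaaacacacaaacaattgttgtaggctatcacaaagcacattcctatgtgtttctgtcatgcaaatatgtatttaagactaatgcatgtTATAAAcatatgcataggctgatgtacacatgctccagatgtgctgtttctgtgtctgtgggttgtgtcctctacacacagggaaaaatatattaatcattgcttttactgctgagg
Acta2: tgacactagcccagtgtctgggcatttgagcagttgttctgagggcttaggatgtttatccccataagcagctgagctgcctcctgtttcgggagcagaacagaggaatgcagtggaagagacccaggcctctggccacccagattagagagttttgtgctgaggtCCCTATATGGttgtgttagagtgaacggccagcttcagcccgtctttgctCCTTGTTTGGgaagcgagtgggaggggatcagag
The motifs searched, on both strands, were the TATA box in the form TATAAA, the core CCAAT of the CCAAT box, the GC box core GGGCGG and the CArG box of smooth muscle genes, by its consensus and with 1 C or G allowed in its middle. No found motif overlapped another. In Col1a2, CCAAT began 109 bases before the start, GGGCGG began at 205 and 188, and a CArG-like run at 228. Among all 32851 promoter stretches of this length, CCAAT was found in 33.8% and GGGCGG in 32.7%. In Col3a1, TATAAA lay 117 to 112 bases before the start, a motif found in 12.4% of all stretches. In Acta2, the CArG-like CCCTATATGG lay at 84 to 75 and CCTTGTTTGG at 34 to 25, and some CArG-like run occurred in 7.24% of all stretches. The strict CArG consensus, found in 1.47% of all stretches, was in none of the 7. Of the stretches not printed, those of Postn, Fbln1 and Pdgfra held none of the motifs, and that of Col6a3 held only a CArG-like run. Matches describe the letters of the window and were not tested for function.

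Some facts of the whole series touch the results. Star was lower in knockout cells by a fitted −4.70 ± 0.93 (SE) on the log2 scale, with an adjusted p of 0.0559 in limma that did not pass the threshold of 0.05. It passed in 11 of 28 alternatives, among them normexp background correction (adjusted p = 0.00530), the replicate number as a block (0.0240) and slide as a random block (0.0369), all by limma. Its levels were 5.87 and 7.04 against 1.58 and 2.59 on slide 1, 7.86 against 2.05 and 3.27 on slide 2, and 7.49, 3.84, 3.21 and 4.95 on wild-type arrays 4 to 7. Knockout array 4 was thus above wild-type array 6, so the genotypes overlapped over all slides and did not within slides 1 and 2. A second Star probe differed by −5.38 ± 0.91 (SE), with an adjusted p of 0.0367 in limma over separate probes. Wild-type array 3, which alone stands for its genotype on slide 2, was the dimmest, with a 75th percentile of 115 against 166 to 706 elsewhere. Its median correlation with the rest was 0.877, against 0.898 to 0.936. Wild-type array 4 was labelled female, but its Y-linked transcript Ddx3y was at 2.70, within the range of the arrays labelled male (2.26 to 3.32), while the other female arrays lay between −6.74 and −5.27. Of the steroidogenic genes, Hsd3b1 was well above background on all 7 wild-type and all 4 knockout arrays, with a lowest level of 4.78. The lowest level of Fdx1 was 5.57, with its spot left out as an outlier on knockout array 4. Cyp21a1 was well above background on only 3 of 7 wild-type and 3 of 4 knockout arrays.

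Within both slides that held the 2 genotypes, collagen, proteoglycan, periostin and smooth muscle actin transcripts were higher in knockout than in wild-type cells, but no gene passed the adjusted threshold. Of the 9 genes, 8 had a fitted difference above 0 and 1, Pdgfra, had one below 0, where 43% of all features were above 0. None of the 9 passed the threshold in limma with slide as a term. Over all 20741 features, 0.834% passed in either direction, 0.603% as higher and 0.231% as lower in knockout cells. At an unadjusted p under 0.05 in limma, 2 of the 9 were higher, Postn and Acta2, and 0 were lower. Of all 20741 features, 8.39% were higher and 2090 were lower at that p. The median of the 9 differences was 1.15 on the log2 scale, or 1.20 within slide 1 and 1.52 within slide 2, where the median over all features was −0.16, −0.06 and −0.33. For 7 of the 9 genes every knockout array exceeded every wild-type array within slide 1 and again within slide 2, which 13.7% of all features did. Over all 11 arrays the genotypes overlapped for each of the 9 genes, and 7.36% of all features did not overlap. When slide was left out of the fit, so that slide 3 counted among the wild-type arrays, the median difference was 0.37.

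**Figure D1:**
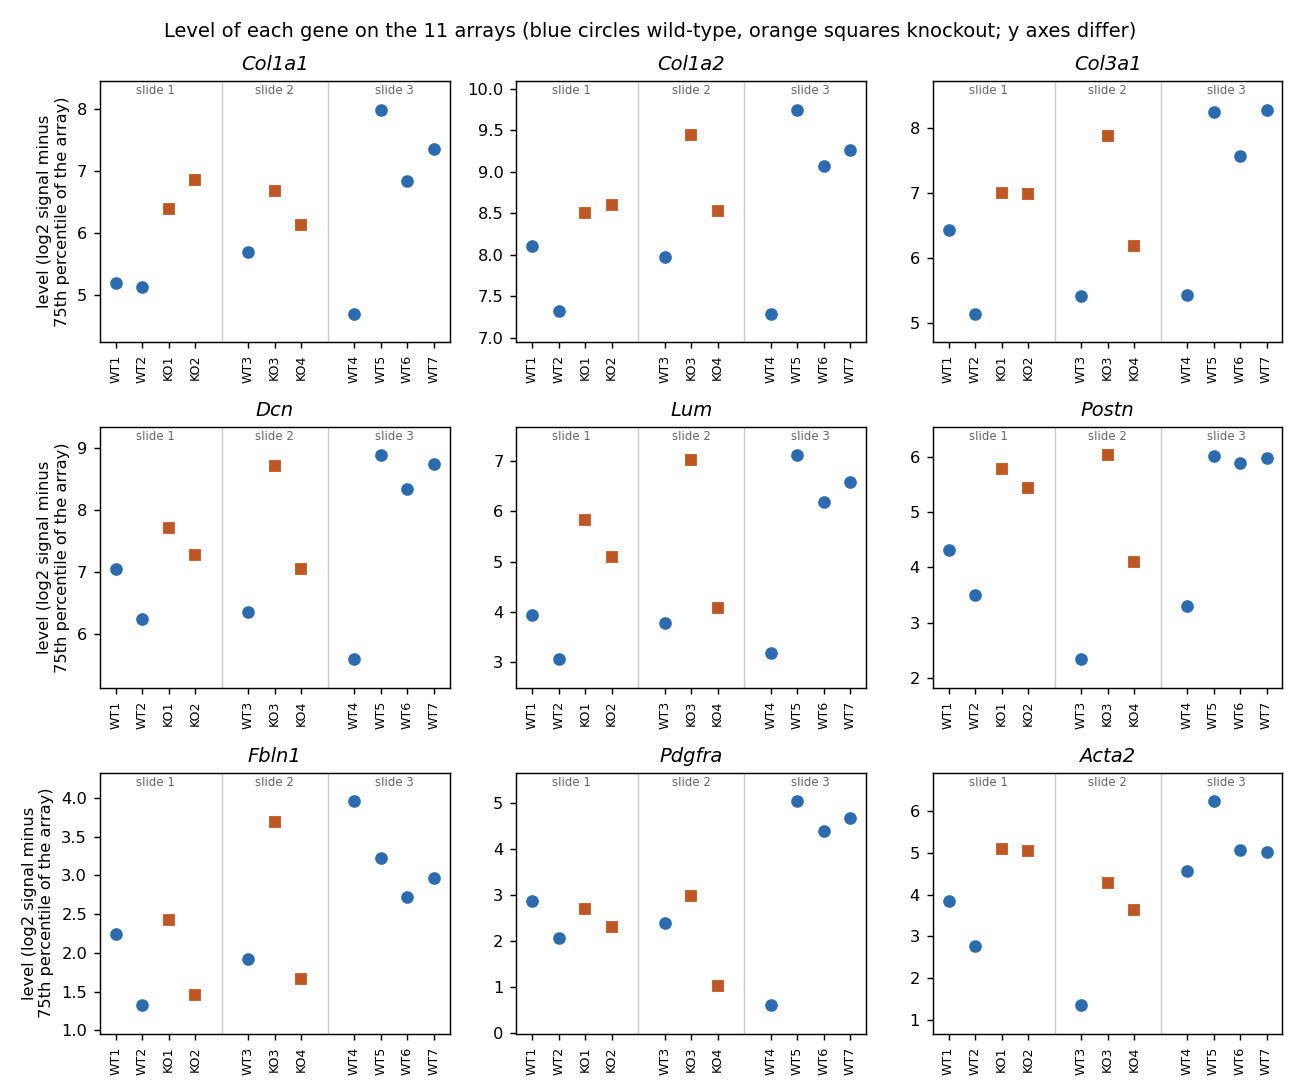
Level of each of the 9 genes (y axis, log2 signal minus the 75th percentile of the array, with its own scale per panel) on the 11 arrays (x axis, grouped by slide), with wild-type arrays (WT) as blue circles and knockout arrays (KO) as orange squares, 1 point per mouse. On slides 1 and 2 the knockout points lie above the wild-type points for 7 genes, while on slide 3 wild-type array 4 lies far below wild-type arrays 5 to 7 for most genes and above them for Fbln1.

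The chains of the collagen fibril were higher in knockout cells within each slide. Col1a1, which encodes the alpha 1 chain of type I collagen, was at 5.20 and 5.13 in wild-type and 6.39 and 6.85 in knockout cells on slide 1, and at 5.70 against 6.67 and 6.13 on slide 2. The 4 wild-type arrays of slide 3 held both the lowest value of all arrays, 4.71 on array 4, and the highest, 7.98 on array 5, with 6.84 and 7.35 on arrays 6 and 7. The knockout arrays were thus above the wild-type arrays beside them, yet inside the span of slide 3. Knockout exceeded wild-type by a fitted 1.15 ± 0.69 (SE; adjusted p = 0.394, limma). Over all slides, Col1a1 averaged 6.13 ± 1.26 (SD, n = 7) in wild-type and 6.51 ± 0.31 (SD, n = 4) in knockout cells.

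Col1a2 encodes the alpha 2 chain that joins 2 alpha 1 chains in the same fibril. Its levels on slide 1 were 8.11 and 7.32 in wild-type against 8.50 and 8.60 in knockout cells, and on slide 2 they were 7.97 against 9.45 and 8.53. Slide 3 gave 7.29, 9.75, 9.08 and 9.26 on wild-type arrays 4 to 7. Knockout array 3 was above the other knockout arrays, wild-type array 4 was the lowest of all 11 and wild-type array 5 the highest. For Col1a2 the fitted difference was 0.91 ± 0.57 (SE; adjusted p = 0.418, limma). Col3a1 encodes type III collagen, the fibril of pliable tissue such as vessel walls and capsules. It was at 6.44 and 5.15 against 7.00 and 6.99 on slide 1, at 5.41 against 7.87 and 6.18 on slide 2, and at 5.44, 8.25, 7.56 and 8.28 on slide 3. Here too the knockout arrays stood above the wild-type arrays of their slide and below 3 of the 4 arrays of slide 3, except that knockout array 3 also exceeded wild-type array 6. For Col3a1 the fit gave 1.36 ± 0.74 (SE; adjusted p = 0.352, limma).

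The proteoglycans of the fibril surface followed the collagens. Dcn encodes decorin, which binds collagen fibrils and sequesters growth factors such as TGF-beta. It was at 7.04 and 6.24 in wild-type and 7.70 and 7.28 in knockout cells on slide 1, at 6.35 against 8.70 and 7.05 on slide 2, and at 5.59, 8.88, 8.34 and 8.74 on slide 3. The fitted difference was 1.12 ± 0.79 (SE; adjusted p = 0.472, limma). Lum encodes lumican, a keratan sulphate proteoglycan that regulates fibril diameter. Its levels were 3.94 and 3.06 against 5.82 and 5.09 on slide 1, 3.79 against 7.01 and 4.08 on slide 2, and 3.19, 7.11, 6.18 and 6.58 on slide 3. Lum had a wider range on slide 3 (3.92) than its fitted difference between genotypes, 1.88 ± 0.97 (SE; adjusted p = 0.334, limma).

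The matricellular proteins differed from each other. Postn encodes periostin, which is secreted by fibroblasts and osteoblasts and crosslinks matrix proteins. It was at 4.32 and 3.50 in wild-type and 5.80 and 5.43 in knockout cells on slide 1, at 2.33 against 6.03 and 4.10 on slide 2, and at 3.30, 6.02, 5.89 and 5.98 on slide 3. Both slides showed knockout above wild-type, and the lowest value was that of wild-type array 3. Its fitted difference was 2.12 ± 0.75 (SE), a 4.34-fold higher level, with an unadjusted p of 0.0183 and an adjusted p of 0.191 in limma. Fbln1 encodes fibulin-1, a glycoprotein of elastic fibres and basement membranes. It was at 2.24 and 1.32 against 2.43 and 1.46 on slide 1, at 1.92 against 3.69 and 1.67 on slide 2, and at 3.96, 3.22, 2.72 and 2.96 on slide 3. The genotypes overlapped on both slides, and the highest value came from wild-type array 4, the array with the lowest levels of Col1a1, Col1a2, Dcn and Pdgfra. The fitted difference was 0.40 ± 0.56 (SE; adjusted p = 0.729, limma).

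Pdgfra encodes the alpha receptor for platelet-derived growth factor. Its levels were 2.87 and 2.08 in wild-type and 2.70 and 2.30 in knockout cells on slide 1, 2.39 against 2.97 and 1.03 on slide 2, and 0.61, 5.04, 4.38 and 4.68 on slide 3. No shift between genotypes was visible on either slide, and the range over the 4 wild-type arrays of slide 3 was 4.43. The fitted difference was −0.14 ± 1.00 (SE; adjusted p = 0.956, limma). Its sign was positive within slide 1 (0.03) and negative within slide 2 (−0.39), so no direction is given for Pdgfra.

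Acta2, the smooth muscle actin gene, had the smallest p of the 9. It was at 3.84 and 2.76 in wild-type and 5.09 and 5.04 in knockout cells on slide 1, at 1.35 against 4.27 and 3.62 on slide 2, and at 4.56, 6.23, 5.06 and 5.02 on slide 3. Every knockout array was above the wild-type arrays of its slide, and the wild-type arrays of slide 3 were spread from within the knockout values to above them. The fitted difference was 2.10 ± 0.48 (SE), a 4.28-fold higher level, with an unadjusted p of 0.00144 and an adjusted p of 0.0798 in limma. It passed the threshold under 4 alternatives: with normexp background correction (adjusted p = 0.0176), among features above background on all 11 arrays (0.0359), with array weights (0.00857) and without wild-type array 4 (0.0478), all by limma. Fits that let some or all wild-type arrays of slide 3 count in the difference gave smaller values for Acta2. It was 0.39 without slide (adjusted p = 0.857) and 1.18 where slide was a random block (0.441), by limma. It was 1.38 where the replicate number was the block (0.310, limma). There, of slide 3, only wild-type array 4 shared a number with a knockout array and so counted in the difference. Over its alternatives that left out 1 array, the difference ran from 1.76 to 2.45. The difference within slide 1, which holds neither wild-type array 3 nor wild-type array 4, was 1.76.

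**Figure D2:**
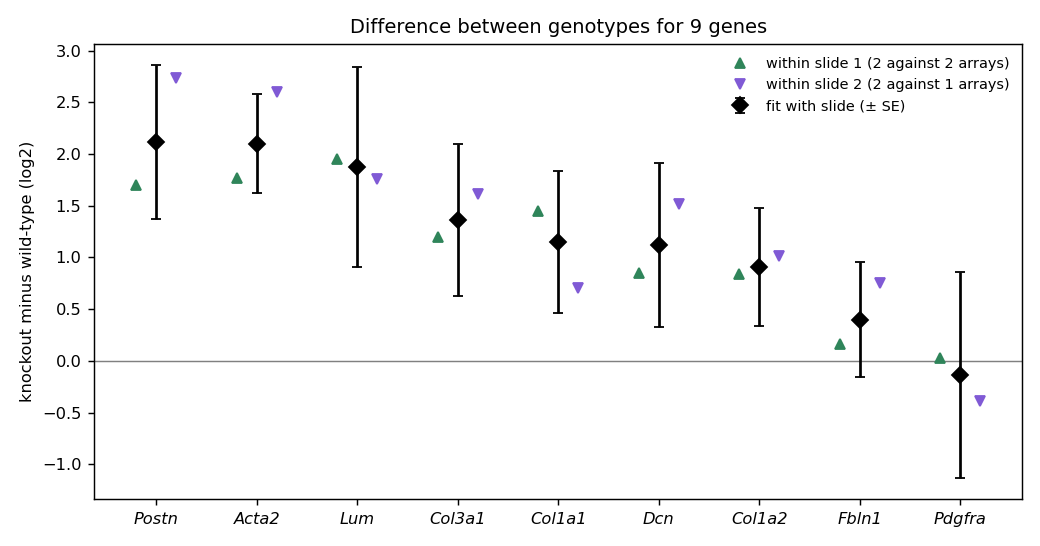
Difference between knockout and wild-type (y axis, log2) for the 9 genes (x axis, in order of the fitted difference), with black diamonds for the limma fit with slide and bars for ± 1 SE, and triangles for the difference of means within slide 1 and within slide 2. The fitted values run from 2.12 for Postn to −0.14 for Pdgfra, and the triangles of both slides are above 0 for all genes but Pdgfra.

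Further probes of these genes did not always follow the first. Col1a1 had 2 more probes, which differed by 2.84 ± 0.73 (SE; adjusted p = 0.113, limma over separate probes) and by 1.30 ± 0.97 (SE; adjusted p = 0.514). Their levels correlated with those of the first probe across the 11 arrays at only 0.15 and −0.17. They averaged −1.22 and −4.83 in wild-type cells, against 6.13 for the first probe. They were well above background on 6 and 3 of 7 wild-type arrays and on 4 and 3 of 4 knockout arrays. The further Col3a1 probe differed by 1.44 ± 0.50 (SE) and correlated with the first at 0.14. It was well above background on 3 of 7 wild-type arrays and on all 4 knockout arrays, so the knockout arrays alone met the filter. For Fbln1 the second probe differed by 0.94 ± 0.57 (SE) and correlated at 0.92. The 2 further Acta2 probes differed by 1.51 ± 0.79 and 1.45 ± 0.49 (SE) and correlated with the first at 0.16 and 0.85. The second Pdgfra probe was above background on 1 array and was not tested. Of 15 probes tested, some of them near the floor, 14 had a difference above 0. That count includes the further Col3a1 probe, for which the knockout arrays alone met the filter, and probes that hardly followed the first. It therefore adds no weight to the differences of the genes. The median difference over all 25884 probes tested was −0.12. Of the 15, 0 passed the threshold, against 0.576% of all probes tested.

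Across the arrays, the genes moved as a block with a pair of exceptions. Of the 36 pairs, 26 had a correlation with an adjusted p at or below 0.05 over the 11 arrays (permutation test, 100000 resamples, two-sided, Benjamini-Hochberg over the 36 pairs), by Pearson's r and likewise by Spearman's rho. The median Pearson's r was 0.80 and the median Spearman's rho 0.80. Without the 2 arrays farthest from the median of the first gene of each pair, the median r was 0.81, and all 36 values were above 0. Since genotype and slide could set such relations, r was also taken on what was left after both, and its median was 0.85. On slide 3, what is left is the distance of each array from the slide mean. Wild-type array 4 lay far below the other arrays of that slide for most genes. The r after genotype and slide, here and below, was not taken without that array. Within the 7 wild-type arrays the median r was 0.89. No slide held the 6 arrays that a correlation within it would need.

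The highest r belonged to Col3a1 and Dcn, 0.97, with an adjusted p of 0.00012 for r (permutation test). Spearman's rho of this pair had a permutation p of 2e-05. Without the 2 farthest arrays its r was 0.98, and after genotype and slide it was 0.98. Within the block of collagens and proteoglycans (Col1a1, Col1a2, Col3a1, Dcn and Lum) the lowest r was 0.90, between Col1a1 and Col3a1. Pdgfra, which showed no shift between genotypes, still varied with them: its r was 0.79 with Col1a1, 0.77 with Col1a2, 0.81 with Col3a1, 0.84 with Dcn and 0.79 with Lum. After genotype and slide these values were between 0.93 and 0.97.

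Acta2 and Fbln1 followed the block least. Acta2 passed in 5 of its 8 pairs, with a median r of 0.64, and its highest r was with Postn, 0.84. Fbln1 passed in 0 of its 8 pairs, with a median r of 0.33 and a range from 0.17 to 0.47. After genotype and slide its median r was 0.08. Without the 2 arrays farthest from the median of the first gene of each pair it was 0.70.

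**Figure D3:**
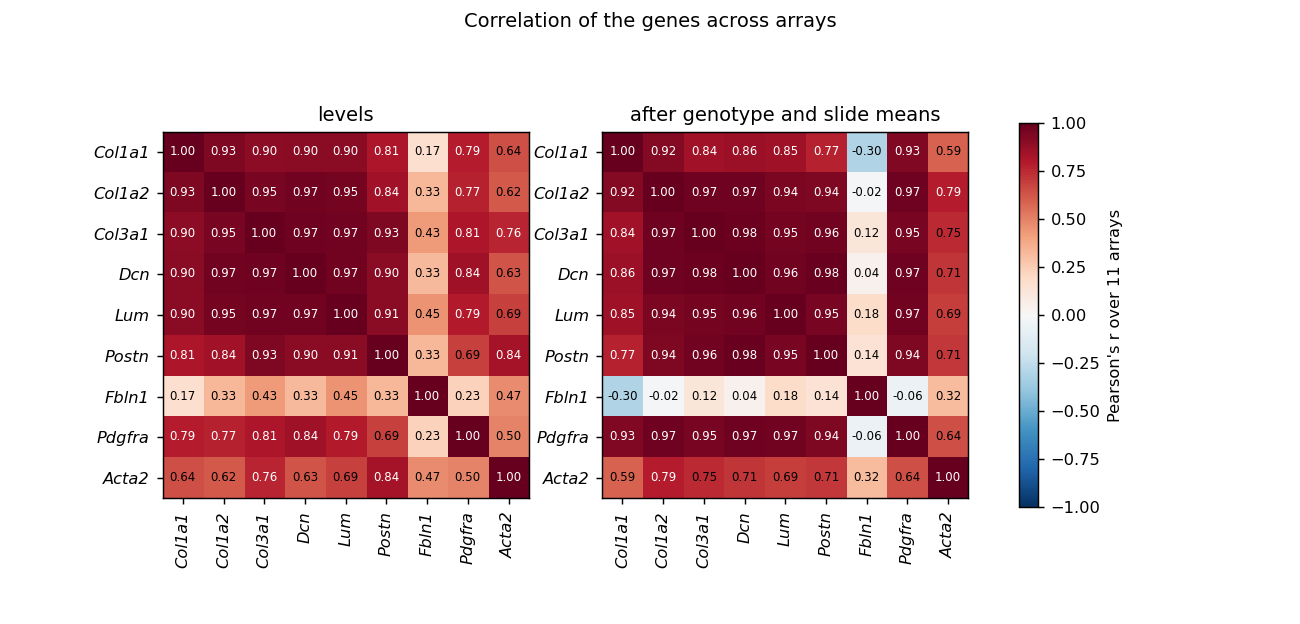
Pearson's r between the levels of each pair of genes over the 11 arrays (left) and after the means of genotype and slide were removed (right), on a colour scale from −1 (blue) to 1 (red). The rows of Col1a1, Col1a2, Col3a1, Dcn, Lum, Postn and Pdgfra form a dark block in both panels, with Acta2 lighter and Fbln1 near 0 on the right.

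The mean level of the 9 genes, each taken relative to its own mean over arrays, set wild-type arrays 5 to 7, all of slide 3, apart from wild-type arrays 1 to 4. Wild-type arrays 1 to 7 were at −0.50, −1.32, −1.25, −1.09, 1.55, 0.84 and 1.15, and knockout arrays 1 to 4 at 0.33, 0.06, 0.91 and −0.68. The wild-type arrays thus held both ends of the order, with no wild-type array between −0.50 and 0.84, and the knockout arrays lay between the ends. Wild-type array 5 was among the 3 highest arrays for 9 of 9 genes, wild-type array 7 for 7 and knockout array 3 for 6. Wild-type array 2 was lowest or second lowest for 7 genes and wild-type array 4 for 6.

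Markers of other cells moved with this order, and their part in the differences between genotypes was not tested. The correlations that follow are descriptions over 11 arrays that share the same RNA and scaling, so values of lists are not independent of each other. The mean of 9 steroidogenic genes ran against the mean of the 9 stromal genes, with r = −0.91. It was highest on wild-type arrays 4 (1.96), 2 (1.86) and 1 (1.22) and lowest on wild-type arrays 5 (−1.67) and 6 (−1.49) and knockout array 3 (−1.30). After genotype and slide this r was −0.93. The list holds Star, the gene the knockout targets. Without Star, r was −0.90, all 8 other genes had a fitted difference below 0, 0 passed the threshold, and 1 was lower at an unadjusted p under 0.05 in limma. Of all 20741 features, 11826 had a difference below 0 and 2090 were lower at that p. The list with Star had a median of −1.47 within slide 1 and −0.21 within slide 2. Within slide 2, Cyp11a1 (1.27), Nr5a1 (0.11) and Scarb1 (0.007) were above 0 and the other tested genes of the list below. Schwann precursor markers, with 5 tested and Fabp7 and S100b at the highest levels, ran with the stromal genes (r = 0.86). They ranged from −2.44 to −0.86 over wild-type arrays 1 to 4 and from 1.23 to 1.62 over wild-type arrays 5 to 7. Over knockout arrays they ranged from 0.16 to 0.44, and all 5 had fitted differences above 0. Chromaffin markers, 8 genes with Chgb and Chga at the highest levels, gave r = 0.46 over all arrays and 0.81 within wild-type arrays. They ranged from −0.93 to 1.33 over wild-type arrays 1 to 4 and from 2.18 to 2.74 over wild-type arrays 5 to 7. Over knockout arrays they ranged from −3.14 to −1.0, with 7 of 8 differences below 0.

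Macrophage markers ran only weakly with the stromal genes over all arrays. All 11 tested were higher in knockout cells, where 43% of all features were above 0. Past the threshold was 1 of them (Trem2, a receptor of macrophages, named after its value was seen), and 0.603% of all features passed as higher. The median difference was 3.07, and Lyz2 and C1qc had the highest levels. That median was 1.64 within slide 1, without wild-type array 3, and 5.13 within slide 2. The mean of these markers ran from −2.76 to 0.22 in wild-type and from 1.84 to 2.47 in knockout arrays, without overlap, where 7.36% of single features did not overlap. Its r with the stromal mean was 0.16 over all arrays and 0.44 after genotype and slide. Endothelial markers (10 tested, Emcn and Kdr highest) gave r = 0.45, with a range from −1.96 to 1.47 in wild-type and from −0.50 to 0.70 in knockout arrays. Mesothelial markers (5 tested, Msln and Krt8 highest) gave r = 0.56, ranging from −1.57 to 3.35 and from −2.36 to 0.90. Erythroid markers (6 tested, Alas2 and Hba-a1 highest) gave r = −0.70, ranging from −1.22 to 1.33 and from −0.67 to 0.99. Kidney markers (4 of 7 tested, Foxd1 and Cdh16 highest) gave r = 0.18, ranging from −1.19 to 1.12 and from −0.71 to 0.61.

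**Figure D4:**
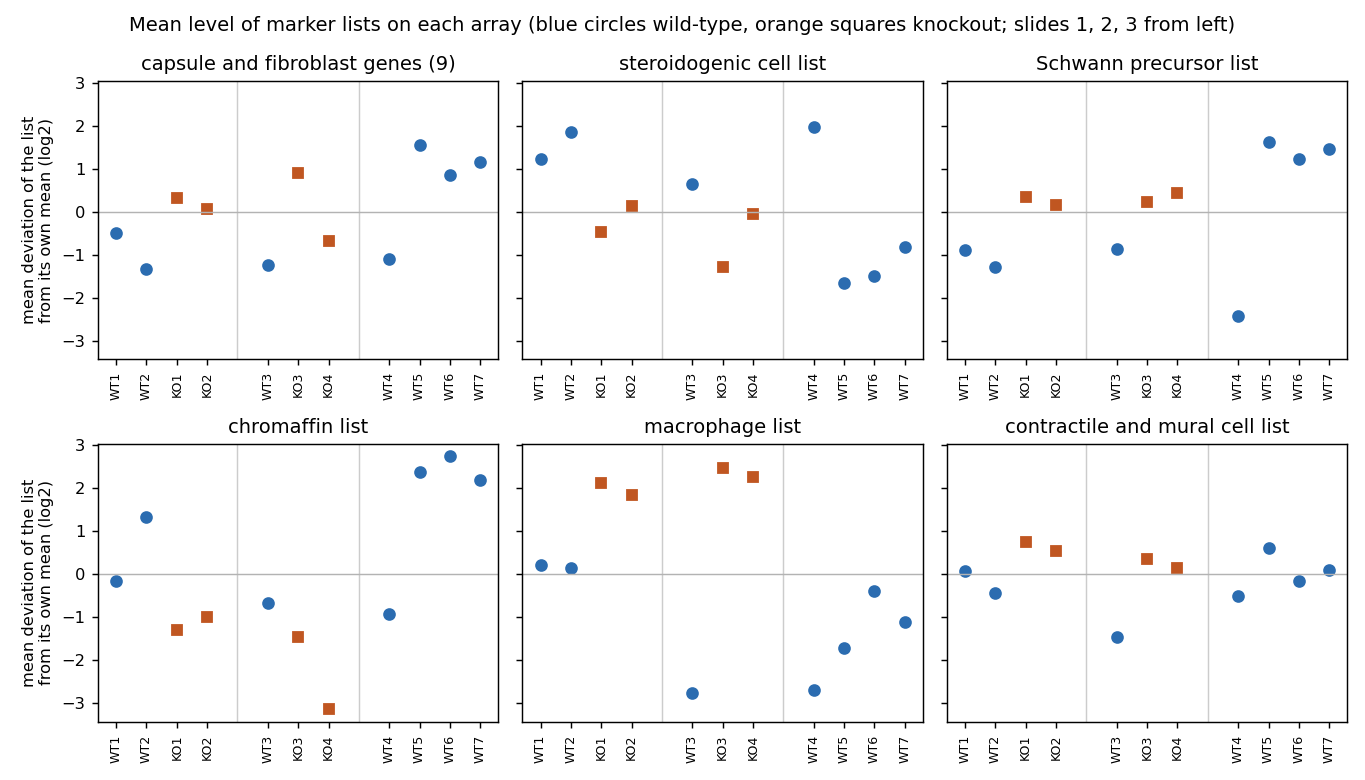
Mean level of the 9 capsule and fibroblast genes and of 5 marker lists (y axis, log2, each gene relative to its own mean over arrays) on the 11 arrays (x axis, slides from left to right), with wild-type arrays as blue circles and knockout arrays as orange squares. The steroidogenic panel mirrors the first panel, and in the macrophage panel the 4 knockout points, from 1.84 to 2.47, stand above all wild-type points.

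Beyond these genes, 8 lists of matrix and stroma genes held 107 tested genes of 110 listed. In the fit 79 were higher and 28 lower in knockout cells, where 43% of all features were above 0. Of the 107, 0 passed the threshold, against 0.834% of all features. At an unadjusted p under 0.05 in limma, 30 were higher and 3 lower. Of all 20741 features, 1741 were higher and 2090 lower at that p. Their median difference was 0.85, against −0.16 over all features. It was 0.44 within slide 1, all that remains without wild-type array 3, and 1.21 within slide 2. Without wild-type array 4, which adds only to the spread, 6 of the 107 passed, all higher in knockout cells, and the share of all features past the threshold was 2.72% (1.69% higher).

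Other fibrillar and associated collagens leaned upward, with 8 of 9 above 0 and a median of 1.04. Col5a1, a chain of the type V collagen that nucleates fibrils, differed by 1.04 ± 0.66 (SE), and Col16a1, which associates with fibrils, by 2.01 ± 0.59 (SE; adjusted p = 0.132, limma). Col5a3, another type V chain, was the exception: its difference was −1.89 ± 0.56 (SE; adjusted p = 0.137, limma). It lay between 4.21 and 5.27 on the 7 wild-type arrays and between 1.05 and 3.47 on the 4 knockout arrays, with no overlap. The basement membrane list had 9 of 11 differences above 0, with a median of 0.40 and 0 genes at an unadjusted p under 0.05 in limma. Nid1, which links laminin to type IV collagen, differed by 0.28 ± 0.68, Col18a1, the source of endostatin, by 0.40 ± 0.51, and Lamc1, a laminin chain, by −0.07 ± 0.53 (SE).

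Genes of collagen folding and crosslinking gave 10 of 16 differences above 0 and a median of 0.76, with 0.31 within slide 1 and 1.67 within slide 2. Serpinh1, the collagen chaperone, differed by 0.66 ± 0.41 and Pcolce, an enhancer of procollagen cleavage, by −0.98 ± 0.40 (SE). Without wild-type array 3 the value of Pcolce was −0.43. Sparc, a collagen-binding glycoprotein, differed by −0.29 ± 0.44 (SE) with its spot left out as an outlier on wild-type array 3 and knockout array 3, so that value comes from slide 1 alone. Of the small leucine-rich proteoglycans, 3 of 8 were above 0, with a median of −0.08, or −0.09 within slide 1 and 0.25 within slide 2. Ogn differed by −0.42 ± 0.94, Prelp by −0.10 ± 1.1 and Aspn, asporin, by 2.41 ± 0.72 (SE; adjusted p = 0.139 for Aspn, limma).

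The elastic fibre and glycoprotein list had 15 of 16 differences above 0 and a median of 1.29, the highest of the 8 lists. Tgfbi, an adhesion protein induced by TGF-beta, differed by 2.06 ± 0.54 (SE; adjusted p = 0.109, limma), Efemp2, needed for elastic fibre assembly, by 1.16 ± 0.51, and the microfibril gene Mfap2, with 1 array left out as an outlier, by 0.94 ± 0.76 (SE). Without wild-type array 3 the value of Efemp2 was 0.32. Within slide 1 the median of this list was 0.73 and within slide 2 it was 2.48. PDGF and TGF-beta signalling genes gave 13 of 17 above 0 and a median of 1.23, with 0.61 within slide 1 and 1.61 within slide 2. The ligand Pdgfa differed by −0.21 ± 0.31, the receptor Tgfbr2 by 1.23 ± 0.54 and Ccn2, a target of TGF-beta, by 0.25 ± 0.86 (SE), and Tgfbr2 was at 0.74 without wild-type array 3. The contractile and mural list had 15 of 16 above 0 and a median of 1.18 (0.74 within slide 1 and 1.72 within slide 2). In 11 of its genes every knockout array was above every wild-type array within both slides, which held for 13.7% of all features. On slide 2 this set the knockout arrays against wild-type array 3 alone. Tagln, an actin-binding protein of smooth muscle, differed by 2.59 ± 0.63 (SE; adjusted p = 0.0928, limma), Pdgfrb, the receptor of pericytes, by 0.83 ± 0.76 and the myosin light chain Myl9 by 0.79 ± 0.53 (SE). Without wild-type array 3 the value of Tagln was 1.58.

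Capsule and mesenchyme regulators did not lean upward, with 6 of 14 above 0 and a median of −0.12, or 0.17 within slide 1 and −0.37 within slide 2. The nuclear receptor Nr2f2 differed by −0.17 ± 0.59, the Hedgehog co-receptor Gas1 by 0.24 ± 0.52 and the surface protein Thy1 by −1.18 ± 0.88 (SE). Across arrays, though, the mean of this list ran with the 9 genes at r = 0.79, and the fibrillar collagen list at r = 0.96.

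**Figure D5:**
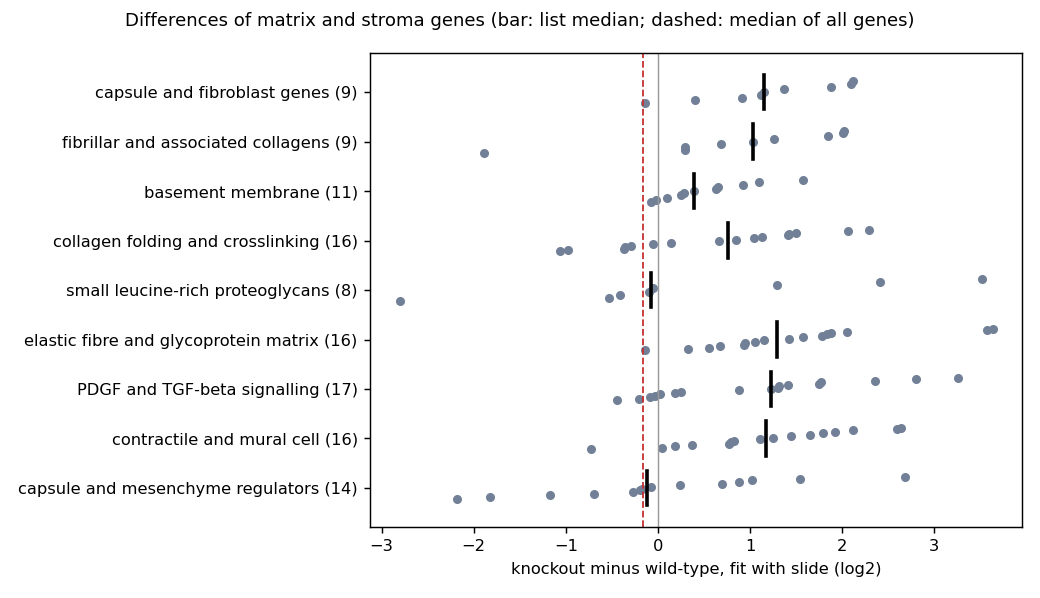
Fitted difference between knockout and wild-type (x axis, log2) of each tested gene (grey points) in the 9 capsule and fibroblast genes and 8 matrix and stroma lists (y axis, number tested in brackets), with a black bar at the median of each list and a dashed line at the median of all features, −0.16. The medians run from −0.12 for the capsule and mesenchyme regulators to 1.29 for the elastic fibre and glycoprotein list.

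The genes whose levels over the 11 arrays were most like the mean of the 9 were found among 13658 other genes with a symbol. Of these, 3.38% had r of at least 0.8 and 3.22% had r of at most −0.8. The 10 highest were Smoc2 (0.98), Rcn3 (0.97), Hic1 (0.96), Runx1t1 (0.96), Sparcl1 (0.96), Spon2 (0.96), Efs (0.96), Bicc1 (0.96), Lima1 (0.95) and Lrrc17 (0.95). Smoc2 and Sparcl1 encode secreted proteins of the SPARC family, and Rcn3 a calcium-binding protein of the endoplasmic reticulum. Their differences between genotypes ran from 1.01 for Bicc1 to 2.92 for Lrrc17, and 0 of the 10 passed the threshold in limma (adjusted p from 0.137 to 0.433).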

How the data were processed

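The deposited scanner files hold spot intensity from Agilent Feature Extraction, whose processed signal is already background-subtracted, per the file headers (version 10.1.1.1 on slides 1 and 2, 10.5.1.1 on slide 3). The deposited series table holds the authors' log2 values, which lay within 0.01 of the scaled log2 signal below, once every probe was centred on its median, for 99.8% of probes, with column medians from −0.166 to 0.901. Its scaling was not stated by the authors in any label or header read.

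Of 43379 non-control spots, 77 to 164 on an array were dropped as outliers and 0 were saturated. Spots of a probe were averaged as log2, and the array's 75th percentile was subtracted. Probes were named through accessions and a RefSeq table (GRCm38.p6), which gave 25377 probes a symbol. A gene was its probe with the highest mean, tested if well above background on at least 4 arrays. Genotypes were compared with limma 3.58.1 (R 4.3.3; lmFit, eBayes) with slide as a term, two-sided, Benjamini-Hochberg over all features, threshold 0.05. The fit was tested on simulated data. The number of arrays limits precision. Correlations were taken with 36 pairs rather than the 45 planned for 10 genes. Python 3.11.15, scipy 1.17.1 and matplotlib 3.10.9 were used.

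The 10 genes, the lists and the tests were chosen with earlier results of these data known. Named genes were Star, the members, the 3 genes of highest mean level in each matrix list, the 2 highest in each cell type list and the 10 most like the member mean. Alternatives concerned slide, sex, the replicate number, background, scaling, filters, probes, the series table, array weights, the variance prior, outliers and each array left out. Normexp (offset 50) used median spot signals, since no mean signal column was at hand. Each array came from 1 mouse.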

Additional observations from a re-analysis of the deposited data

Results flagged for a closer look

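Col1a2 on knockout array 3 stood apart from the other knockout arrays, at 9.45 where the next was 8.60. Its gap to that array was 0.898 of the range of the 4 arrays, above the critical value of 0.829 for 4 samples. Of 22 groups of arrays looked at in this way, 1 stood out, where chance alone gives about 1 in 20.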

How the results depend on the processing

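The median difference of the 9 genes stayed above 0 under every alternative, from 0.37 without slide to 1.52 within slide 2, and from 1.06 to 1.39 with 1 array left out. Their median correlation ran from 0.64 with the mean over a gene's probes to 0.89, and from 0.75 to 0.83 with 1 array left out. The count of the 9 past the threshold, 0, was 1 with normexp, 1 with features above background on all 11 arrays, 3 with array weights (Acta2, Postn and Col1a1), and 0 to 1 with 1 array left out, 1 only without wild-type array 4. The share of all features past the threshold moved too, from 0.834% to 3.01%, 3.23%, 11.2% and 2.72% under these 4 alternatives. The count over the 107 wider genes, 0, was 4 without slide (2 higher, where 2.86% of all features passed). It was 2 with slide as a random block (1 higher, 2.26% of all features). Col5a3 was lower in both (adjusted p = 0.0267 and 0.0497, limma). The count was 6 with normexp and 3 with the stricter filter, all higher. It was 1 with quantile scaling (1.19% of all features) and 1 with the mean over probes (0.752%), both higher. With array weights it was 23 (21 higher). With 1 array left out it was 0 to 6, and only the fit without wild-type array 4 gave any. The cause of these changes was not tested. The median over all features was −0.16, −0.29 with normexp, −0.08 with quantile scaling and −0.12 with array medians. Sex as a term beside slide gave a median of 0.995 for the 9 genes and 0 calls among them, where 0.135% of all features passed. Without wild-type array 4, a setting chosen after seeing the data, the same term gave a median of 1.21 and 0 calls.

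With the replicate number as a block in place of slide, 0 of the 9 and 0 of the wider genes passed, with a median of 1.38. The numbers were not established as pairs: deviations of same-numbered arrays correlated at 0.18, 0.22, −0.01 and 0.18, and 1 of 4 knockout arrays matched its own number best.

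Small differences changed sign. Without slide, Fbln1 was −0.31, Nid1 −0.26, Serpinh1 −0.23, Ccn2 −0.78 and Gas1 −0.16, and with slide as a random block Nid1 was −0.0074 and Ccn2 −0.31. Within slide 1, Pdgfra was 0.027, Lamc1 0.34, Ogn 0.10, Ccn2 −0.65 and Nr2f2 0.17, and within slide 2, Col18a1 was −0.38, Prelp 0.50 and Gas1 −0.39. With the replicate block, Fbln1 was −0.051, Pdgfra 0.26, Lamc1 0.017, Prelp 0.22 and Nr2f2 0.095. Normexp gave Lamc1 0.064 and Prelp 0.058, and quantile scaling gave Lamc1 0.12, Pdgfa 0.10 and Nr2f2 0.075. Array weights gave Pdgfra 0.17, Lamc1 0.38, Ogn 0.073, Ccn2 −0.49 and Nr2f2 0.018. Sex as a term gave Ccn2 −0.23, and without wild-type array 4 it gave Lamc1 0.052 and Nr2f2 0.017. The mean over probes gave Sparc 0.47. With 1 array left out, Pdgfra ran from −0.43 to 0.21 (above 0 without wild-type array 1 or 3 or knockout array 4), Lamc1 from −0.35 to 0.34, Prelp from −0.50 to 0.44, Ogn from −0.76 to 0.10, Ccn2 from −0.65 to 0.68 and Nr2f2 from −0.39 to 0.17.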
